A study of Homo sapiens with 3 samples.

Results

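The regions described here are the highest-fold H3K27me3 peaks that the control list of the series placed on chromosome arms. A member is a control peak with a fold enrichment of at least 4 that has no base on chromosomes 19, 20 or X and no base in any of 20 intervals that hold the centromeres, their flanks, the satellite blocks and the acrocentric short arms. The rule found 221 members among 181157 control peaks, of which 102201 lay on the arms. Fold enrichment is the ratio of a peak over its background as the authors' peak caller gave it, and the members were chosen by this fold and by position, so the fold is given below as a description. The retained arms of 20 chromosomes came to 2465 Mb, taking the last peak end of either list as the end of a chromosome.

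The 3 samples came from the human osteosarcoma line U2OS, and the mark H3K27me3 was mapped by ChIP-seq. One ChIP library came from cells transfected with the control Gl3 and one from cells transfected with siORCA; ORCA is a protein that binds the origin recognition complex. The third sample, an untreated input, had no values analysed here. Each condition had 1 library, so no difference between conditions was tested, and the read depth behind either list is not given in the sources used here. A deeper library yields more and longer peaks, and depth and condition cannot be told apart in these lists. No measure of the ORCA knockdown was analysed here.

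H3K27me3 is written by EZH1 or EZH2, the catalytic subunits of Polycomb repressive complex 2, and is read by CBX proteins of Polycomb repressive complex 1. On chromosome arms the mark is known to form broad domains over silent developmental genes, such as the HOX clusters, and to spread from sites where the complex is first recruited. Arms also carry tandem arrays of near-identical units, among them the REXO1L1 array on the long arm of chromosome 8, the USP17L array on the short arm of chromosome 4, the 5S ribosomal RNA genes on the long arm of chromosome 1 and the kringle repeats within LPA on the long arm of chromosome 6. No annotation or sequence of T2T-CHM13, the build of the coordinates below, was used here, so no member was assigned to a gene or repeat and no sequence is shown.

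Members were of very unequal width. The narrowest was 100 bp, the median 3481 bp and the widest 172296 bp, and together they covered 2.05 Mb. The 101980 arm control peaks of lower fold had a median width of 491 bp. The widths fell into a narrow and a broad group, with few members between them: 56 members were under 300 bp, 17 between 300 bp and 1 kb, 64 between 1 and 5 kb, 40 between 5 and 10 kb and 44 of 10 kb and above. Thus 84 of 221 members were at least 5 kb wide, while 1.83% of all arm control peaks were. The 44 widest made up 76.1% of the members' length and the 56 narrowest 0.403%. Both widths and folds come from the control library that defined the members, so these shares describe the list and are no test.

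**Figure D1:**
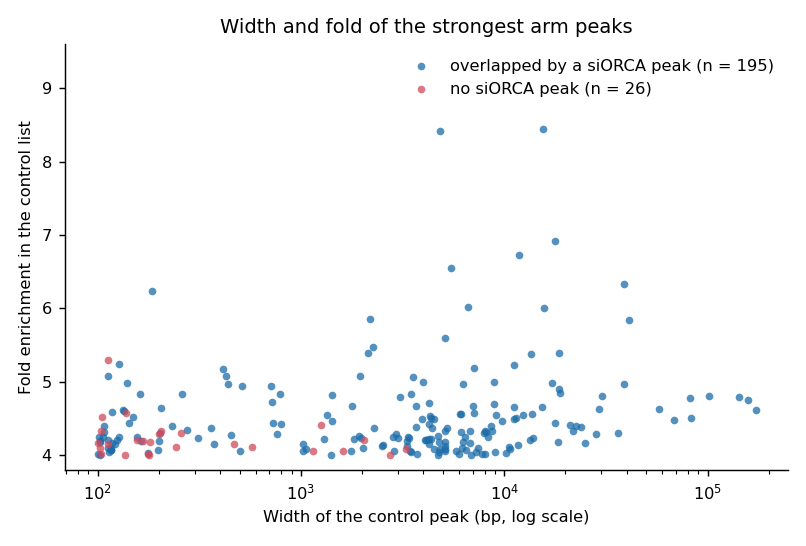
Width of each of the 221 members (x axis, bp, log scale) against its fold in the control list (y axis), with members overlapped by a siORCA peak in blue and the others in red. Of the 26 members without a siORCA peak, 18 are under 300 bp and 23 have a fold under 4.5; the highest has 5.29 and the widest is 3298 bp.

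Folds among members were mostly close to the limit. The median fold was 4.30 and the highest 8.44, with 144 members from 4 to under 4.5, 51 from 4.5 to under 5 and 26 at 5 and above. The −log10 q of members ran from 3.89 to 29.0 with a median of 6.13, against a median of 1.67 for the arm peaks of lower fold. Just inside the limit were a 2730 bp peak on chromosome 9 from 146291105 to 146293834 (4.002-fold), a 6876 bp peak on chromosome 8 from 144936482 to 144943357 (4.004-fold) and a 103 bp peak on chromosome 1 from 227979069 to 227979171 (4.004-fold). Just outside were a 1448 bp peak on chromosome 1 from 203690591 to 203692038 (3.999-fold), a 12048 bp peak on chromosome 8 from 144207625 to 144219672 (3.999-fold) and a 370 bp peak on chromosome 1 from 227976560 to 227976929 (3.995-fold).

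The 10 members of highest fold were led by a peak on chromosome 3 from 200104109 to 200119684, 15.6 kb wide and 0.986 Mb from the chromosome's end, with a fold of 8.44. A 4816 bp peak on chromosome 6 from 171528288 to 171533103 followed with 8.41. Chromosome 8 from 144814526 to 144832353 had 6.92, chromosome 6 from 71493853 to 71505660 had 6.73, chromosome 3 from 37709177 to 37714668 had 6.55 and chromosome 15 from 99072076 to 99110862 had 6.33. The remaining 4 were on chromosome 4 from 1432577 to 1432762 (6.24), chromosome 8 from 143702166 to 143708797 (6.01), chromosome 7 from 494558 to 510262 (6.0003) and chromosome 4 from 1427350 to 1429529 (5.85). Of these 10, 7 lay within 2 Mb of a chromosome end; the members on chromosome 8 near 143.7 Mb, chromosome 6 near 71.5 Mb and chromosome 3 near 37.7 Mb did not.

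All 10 were overlapped by siORCA peaks. The least covered was the chromosome 7 member, with 79.0% of its length under 3 siORCA peaks. The members on chromosome 6 near 171.5 Mb and both on chromosome 4 were covered over 100%. The highest siORCA fold at these members was 20.9 on chromosome 3 near 37.7 Mb, followed by 19.01 on chromosome 8 near 144.8 Mb. At the top control member, on chromosome 3 near 200.1 Mb, the siORCA fold was 7.18. The order of folds thus differed between the lists, and a fold from one list is not on the scale of the other.

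Members were shared with the siORCA list more often than the other arm peaks. At least 1 bp of a siORCA peak lay on 195 of 221 members, 88.2% (95% Wilson interval 83.3 to 91.8%). Over all arm control peaks the share was 17.0%. By length, siORCA peaks covered 85.0% of the members, 1.74 of 2.05 Mb, and 11.4% of the arm control peaks of lower fold. At least 50% of the width was covered in 154 members (69.7%), against 6.54% of all arm control peaks. The whole width was covered in 57 members (25.8%), against 2.33%. These intervals reflect counting error alone, and peaks of 1 cluster, which share their surroundings, are counted in them as if independent.

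The sharing was higher in control peaks of higher fold, with no step at the limit of 4. On the arms, siORCA peaks covered 4.82% of the length of control peaks with a fold under 2.5, 8.79% from 2.5 to 3, 15.2% from 3 to 3.5 and 31.2% from 3.5 to 4. Among members the share was 66.8% from 4 to 4.5, 95.7% from 4.5 to 5 and 89.5% at 5 and above. A single cluster on chromosome 8 held 71.2% of the length from 4.5 to 5, and without it the shares were 63.2%, 85.0% and 89.5%. The 74 arm peaks with a fold of 3.9 to under 4 had 51.1% of their length covered, and the 44 members under 4.1 had 49.3%. Control peaks with a fold of at least 4 outside the retained arms, 1360 in number and 17.5 Mb long, had 94.2% of their length covered. A smaller share of these peaks was touched by a siORCA peak (70.2%, interval 67.7 to 72.6%). They include any such peaks on the chromosomes left out whole, whose arms are not retained. Neither share thus describes the left-out intervals alone.

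**Figure D2:**
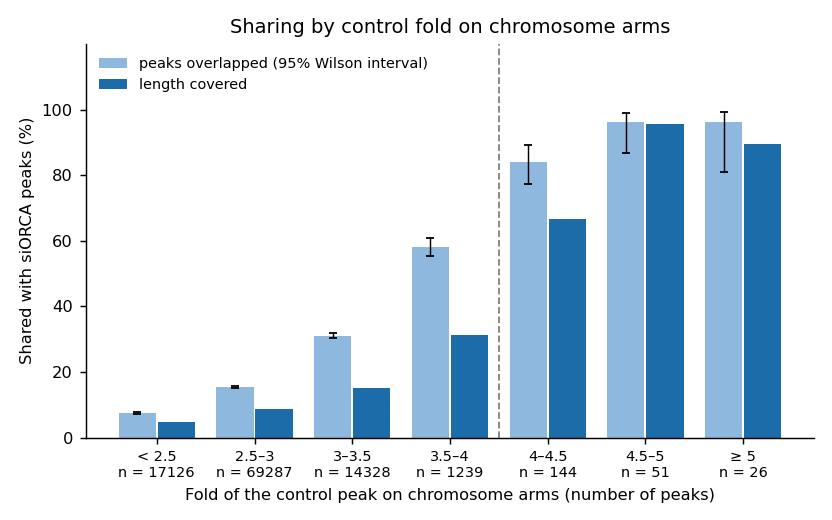
Share of arm control peaks overlapped by a siORCA peak (light bars, with 95% Wilson intervals) and share of their length covered (dark bars), by fold of the control peak (x axis, with the number of peaks); members lie right of the dashed line. The covered length reaches 95.7% from 4.5 to 5, a class with 71.2% of its length in 1 chromosome 8 cluster, without which 85.0% is covered.

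The chromosome 8 cluster described below held 41.8% of the members' length and was covered almost whole. Without it, 74.2% of the members' length was covered, and 87.6% of the members were overlapped. This alternative was chosen after seeing the data.

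Width moved with the sharing as well, so fold classes were also compared within width classes chosen after seeing the data. Under 300 bp, 38 of 56 members were overlapped (67.9%, interval 54.8 to 78.6%), against 30.6% of 258 arm peaks with a fold of 3.5 to 4 and 7.21% of those with a fold under 3. From 1 to 5 kb, 58 of 64 members were overlapped (90.6%), against 61.1% and 26.6%. All 40 members of 5 to 10 kb and all 44 of 10 kb and above were overlapped, but so were 95.2% and 98.8% of the equally wide peaks with a fold of 3.5 to 4. A touch by 1 bp hardly separates such wide peaks, whereas the covered length differed more. It was 91.3% in members of 10 kb and above. In equally wide peaks it was 36.7% with a fold of 3.5 to 4 and 10.8% with a fold under 3. Much of the length behind the 91.3% lay in the chromosome 8 cluster, which was covered almost whole. Of its 858.9 kb, all but a member of 9088 bp falls in this class of 1.56 Mb. The share of the class without that cluster was not computed.

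The siORCA peaks on members had higher folds than other arm siORCA peaks by their medians. The 342 siORCA peaks on members had a median fold of 3.54 and 28.1% of them a fold of at least 4, against 3.20 and 5.43% for the 37355 arm siORCA peaks on no member. The highest siORCA fold at a member had a median of 4.16 and ran from 2.89 to 20.9 over the 195 members. It was at least 4 in 109 of 221 members (49.3%), against 1.46% of all arm control peaks. Among overlapped peaks alone the shares were 55.9% of members and 8.63% of all arm control peaks. Overlapped arm peaks with a fold under 3 had a median siORCA fold of 3.26. Within members, the median siORCA fold was 3.84 for control folds of 4 to 4.5, 5.36 for 4.5 to 5 (4.46 without the chromosome 8 cluster described below) and 7.57 at 5 and above. Over the 195 members the 2 folds had a Spearman correlation of 0.54, and of 0.50 over 144 members when the longest of each cluster was kept. This is a description: members of a cluster can lie under the same siORCA peak, and both folds rest on the same genome positions.

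**Figure D3:**
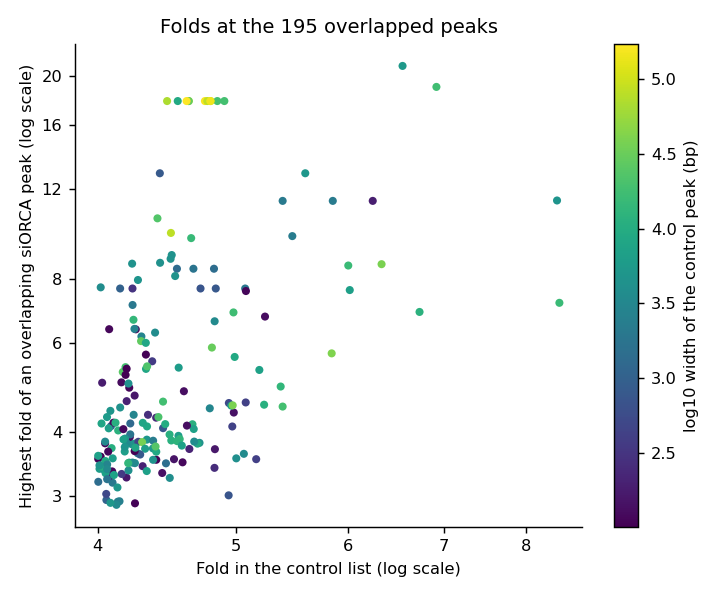
Fold of each of the 195 overlapped members in the control list (x axis) against the highest fold of a siORCA peak overlapping it (y axis), both on log scales, coloured by log10 of the member's width in bp. The row of points at a siORCA fold of 17.8 holds the 11 members of 1 chromosome 8 cluster, all under the same siORCA peak.

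The 2 lists cut these regions up differently. A single siORCA peak overlapped 130 members and several siORCA peaks overlapped 65, with up to 14 on 1 member, on chromosome 11. In 82 members the longest overlapping siORCA peak was wider than the member itself. Of these, 33 were under 300 bp, 9 of 300 bp to 1 kb, 22 of 1 to 5 kb, 6 of 5 to 10 kb and 12 of 10 kb and above. The 82 include the 11 members of the chromosome 8 cluster, all under the same siORCA peak. No member under 1 kb was overlapped by more than 1 siORCA peak, so these counts depend on the width of the members. The siORCA peaks on members had a median width of 935 bp, against 326 bp for arm siORCA peaks on no member, and a median −log10 q of 2.06 against 1.56.

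The 26 members with no siORCA peak were mostly small and close to the fold limit. They had a median width of 179 bp, 18 of them were under 300 bp, 23 had a fold under 4.5, and they made up 0.775% of the members' length. The highest folds among them were 5.29 on chromosome 1 from 2192377 to 2192488 (112 bp), 4.57 on chromosome 4 from 192666015 to 192666152 (138 bp), 4.53 on chromosome 3 from 63823825 to 63823929 (105 bp), 4.41 on chromosome 10 from 94349620 to 94350871 (1252 bp) and 4.34 on chromosome 14 from 23817919 to 23818124 (206 bp). The widest were on chromosome 5 from 140242073 to 140245370 (3298 bp), chromosome 9 from 146291105 to 146293834 (2730 bp), chromosome 1 from 94577069 to 94579119 (2051 bp) and chromosome 8 from 23607925 to 23609538 (1614 bp), followed by the same chromosome 10 peak.

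Some of these members had siORCA peaks nearby. The nearest siORCA peak was 0.42 to 117 kb away, with a median of 15.1 kb, and 12 of the 26 (46.2%) had one within 10 kb. Among the 84849 other arm control peaks without a siORCA peak, 35.3% had one within 10 kb, with a median distance of 21.4 kb. The chromosome 1 member near 2.19 Mb lay 0.66 kb from another member, and control peaks took up 85.5% of its 50 kb flanks and siORCA peaks 51.9%. The chromosome 5 member was isolated in both lists, with 0.324% of its flanks under control peaks and 0% under siORCA peaks. At the unknown depth of the siORCA list, an empty position was not shown to lack the mark.

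Members lay nearer to chromosome ends than other arm peaks. The median distance to the nearer end was 10.6 Mb for members and 31.7 Mb for arm control peaks of lower fold. Within 1 Mb of an end lay 28 members (12.7%, interval 8.91 to 17.7%), against 2.64% of all arm control peaks. Within 2 Mb lay 55 (24.9%), against 4.83%, and within 10 Mb 101 (45.7%), against 20.2%. The members within 1 Mb were spread over 20 of the 35 chromosome ends that the rule retains. Of the 55 members within 2 Mb, 54 were overlapped by a siORCA peak, but 74.2% of their length was covered, against 88.1% for the other 166. Without the 11 members of the chromosome 8 cluster described below, the share for the other 155 was 74.1%, so the gap between the 2 shares rested on that cluster.

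**Figure D4:**
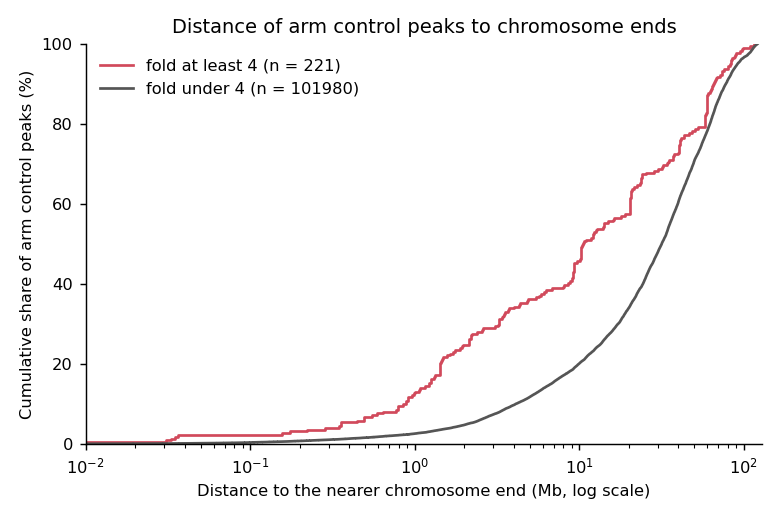
Cumulative share of arm control peaks (y axis, %) by distance to the nearer chromosome end (x axis, Mb, log scale), for the 221 members (red) and the 101980 peaks of lower fold (grey). The curve of members lies above the other throughout the outer 10 Mb, where 45.7% of members are found.

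Each of the 20 chromosomes held at least 1 member, in very different numbers. Chromosome 1 had 33, chromosome 8 had 31, chromosome 4 had 25 and chromosome 6 had 20. These 4 chromosomes held 49.3% of the members and 26.7% of all arm control peaks. Per length of retained arm, chromosome 8 had 2.24 members per 10 Mb, chromosome 22 had 1.92 and chromosome 1 had 1.51, against 0.897 over all arms. Without the 11 adjoining members of its long cluster, chromosome 8 had 1.45. With every cluster counted once, chromosome 22 still had 1.92, chromosome 8 had 1.45, chromosome 17 had 1.08, chromosome 11 had 1.02 and chromosome 1 had 0.916. Chromosome 4 went from 1.38 to 0.496 and chromosome 6 from 1.22 to 0.731. The share of 49.3% above counts every member of a cluster. The rate over all arms with clusters counted once was not computed. Chromosome 13 was lowest, with 1 member of 103 bp and 0.108 per 10 Mb. The share of member length covered by siORCA peaks ran from 95.2% on chromosome 8 (66.0% without that cluster), 91.8% on chromosome 15 and 91.8% on chromosome 4 down to 39.5% on chromosome 12, 37.2% on chromosome 10 and 0% on chromosome 13.

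Members stood in surroundings rich in other peaks. The 50 kb on each side of a member, without the member itself, were covered over a median of 13.8% by control peaks and 5.86% by siORCA peaks. For arm control peaks of lower fold these medians were 5.27% and 0.535%. For members of 10 kb and above the medians were 39.9% (control) and 20.8% (siORCA). For members of 300 bp to 1 kb they were 11.5% and 23.9%, and for members under 300 bp 5.77% and 3.08%. Most members of 300 bp to 1 kb lay in clusters, with siORCA flanks of 5.78% to 100%. Outside clusters these flanks ran from 0% to 2.08%, with 1 exception of 55.25% on chromosome 8. Members of a cluster share their surroundings but are counted in these medians as if independent. The medians without clusters were not computed. When control peaks at most 3 kb apart were joined, 80 members (36.2%) fell into a stretch of at least 20 kb, against 7.80% of the lower peaks. As 20 members are that wide themselves, the comparison was repeated for peaks under 20 kb, with 60 of 201 members (29.9%) against 7.74%. Of 607 such stretches on the arms, 42 held a member. At the other extreme, 5 members had no other control peak within 50 kb.

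The share of members overlapped followed the density of the flanks. Of the 18 members whose flanks were covered over less than 1% in the control, 12 were overlapped by a siORCA peak. Of the 72 with flanks covered from 1 to 10%, 58 were, and of the 131 with denser flanks, 125 were (95.4%). The covered shares of member length were 73.3%, 65.9% and 87.5% in the same order. All 11 members of the chromosome 8 cluster, 858.9 kb long and covered almost whole, fell in the densest class. A 22.6 kb member on chromosome 15, covered over 96.3%, fell in the sparsest. The shares without them were not computed, so these values do not show whether the covered length also followed the flanks. The median widths of these groups were 1351, 738.5 and 4816 bp, and the part of width and flanks in the sharing was not tested.

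Most members stood alone, while a few clusters held many. Another member lay at most 100 kb away for 75 of 221 (33.9%, interval 28.0 to 40.4%), and these formed 19 clusters, 9 of them pairs. With a distance of 10 kb, 23.5% of members had a neighbour, and with 1 Mb 57.9%. The 10 clusters of 3 or more members held 57 members, and 98.9% of their length was covered by siORCA peaks, against 69.3% for single members and pairs. Most of that cluster length lay in the chromosome 8 cluster (858.9 kb, 99.99% covered). In the other clusters the covered share ran from 69.5% to 100%.

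The longest cluster lay on chromosome 8 from 86083119 to 86946695. Its 11 members followed each other with gaps of 388 to 612 bp, were 9088 to 172296 bp wide and had folds from 4.48 to 4.91, and they covered 858.9 of 863.6 kb. In the siORCA list a single peak of 865.1 kb with a fold of 17.8 covered 99.99% of the span. Of the 10 longest members, 7 belong to this cluster. The other 3 were on chromosome 6 from 161915829 to 161998529 (82.7 kb, 95.7% covered by siORCA peaks), chromosome 7 from 102228088 to 102269280 (41.2 kb, 95.9%) and chromosome 5 from 1333388 to 1372244 (38.9 kb, 70.1%, under 9 separate siORCA peaks).

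The cluster on chromosome 1 from 227817815 to 228017182 was of the opposite kind. It too had 11 members, but they were 103 to 516 bp wide and covered 2.17 kb of 199.4 kb. Within the same span the control list had 63 peaks covering 16.2 kb, and the siORCA list had 119 peaks covering 64.4 kb. The siORCA coverage was thus 3.98 times the control coverage, while over all retained arms it was 0.217 times (21.1 against 97.2 Mb). The siORCA folds at the 9 overlapped members ran from 3.36 to 4.57, and the highest siORCA fold anywhere in the span was 5.91.

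On chromosome 6 from 161865813 to 161998529, 8 members covered 124.6 of 132.7 kb. A row of 6 was evenly spaced, with widths of 4271 to 4744 bp, folds of 4.23 to 4.53 and centres 5.38 to 5.77 kb apart. The siORCA list had 6 peaks of 4781 to 5187 bp at the same places, with folds of 7.96 to 8.90 and centres 5.42 to 5.66 kb apart. Beyond them, both lists continued with a peak of about 16 kb and one of about 80 kb. The cause of the spacing was not tested, and the sequence there was not examined.

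Chromosome 4 held 5 of the 10 clusters. From 1421277 to 1439690, 6 members with folds of 4.39 to 6.24 were covered over 100% by 3 siORCA peaks with folds of 6.28 to 12.9. From 9276883 to 9358512, 5 members of 310 to 1955 bp lay under 1 siORCA peak of 224.8 kb with a fold of 7.66, and from 9124968 to 9159975 another 3 lay under 1 siORCA peak of 41.1 kb with a fold of 8.37. In these 2 spans the control list had 38 and 12 peaks with median folds of 3.18 and 3.64. From 135046224 to 135076180, 4 members were covered over 69.5%, with siORCA folds of 3.85 to 4.58 at the 3 overlapped. From 190309067 to 190315088, 3 members were covered over 80.2%, with siORCA folds of 3.03 to 3.62.

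The remaining clusters of 3 lay on chromosome 1 from 2130823 to 2223316 and on chromosome 16 from 851431 to 920392, with 90.3% and 91.7% of the member length covered. Across the 10 spans, siORCA peaks covered at least as many bases as control peaks in 7. The exceptions were the chromosome 4 spans near 135.0 and 190.3 Mb and the chromosome 1 span near 2.13 Mb, with ratios of 0.768, 0.954 and 0.628. The spans were drawn around control peaks, and the ratio was not tested.

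**Figure D5:**
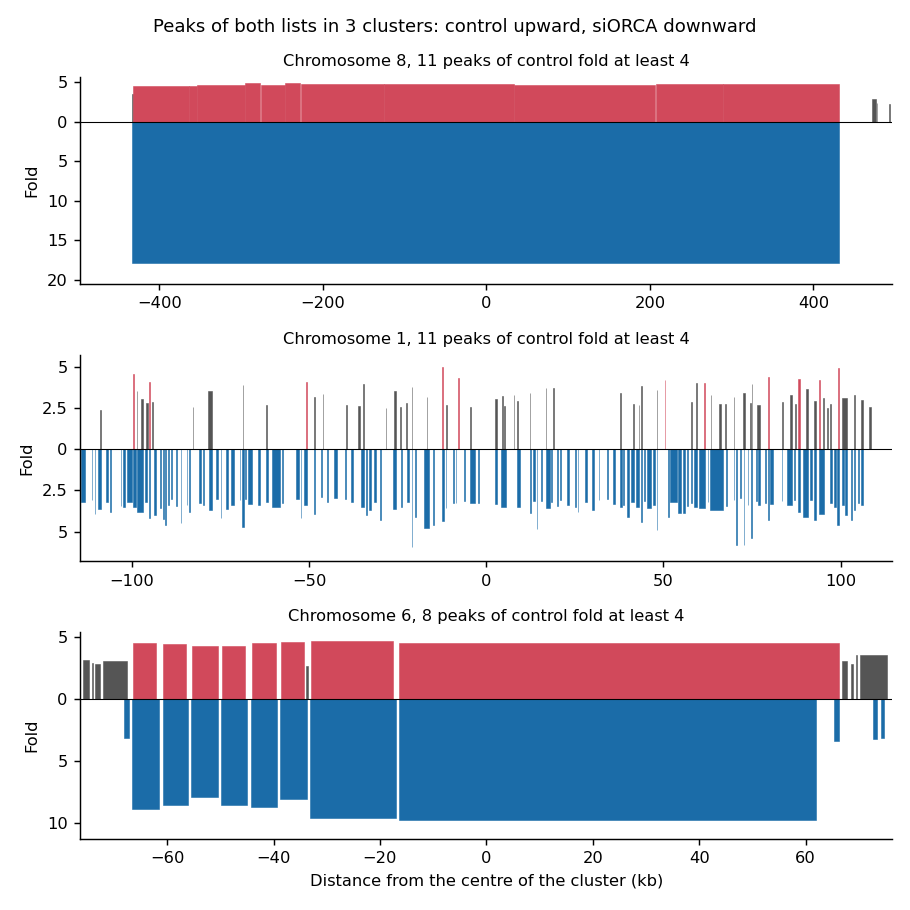
Peaks of both lists across the 3 clusters with most members, by distance from the cluster's centre (x axis, kb); bars reach up to the fold of each control peak (red for members, grey for other control peaks) and down to the fold of each siORCA peak (blue). The chromosome 8 span is 1 siORCA peak of fold 17.8, the chromosome 1 span many short peaks in both lists, and the chromosome 6 span a row of evenly spaced peaks in both lists.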

How the data were processed

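The data were 2 lists of broad H3K27me3 peaks, 1 per ChIP library, from U2OS cells fixed in 1% formaldehyde for 10 min and sequenced from a single end for 101 cycles, per the labels' protocols. Reads were handled with Bowtie2, Trimmomatic, SAMtools and bcl2fastq, and the build is T2T-CHM13, per the submitters' processing notes, which give no versions. How peaks were called, whether the input served as background and how multiply aligned reads were treated is not given in the sources used here. The authors deposited for each peak a fold enrichment (a ratio), a −log10 p-value, a −log10 q-value and a score. Both lists stop at a −log10 q of 1.00. The deposited score was not used.

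Coordinates are printed from 1. A peak with any base in a left-out interval was dropped. Overlaps, distances, joined stretches and flank coverage were computed with Python 3.11.15, pandas 2.3.3 and NumPy 2.4.6, and Wilson intervals with SciPy 1.17.1. With 1 library per condition no test was made. On chromosome 21, 0 of 2369 overlaps differed from a base-by-base count, and 30 of 30 planted clusters were found in simulated data. The members, the named-region rule (the 10 highest and 10 longest members, the 5 highest and 5 longest without a siORCA peak, the 5 clusters with most members, and 3 peaks on each side of the limit) and the alternatives were chosen with earlier results of these data known. The other clusters of 3 or more, the width and fold classes, the flanks and the values without a cluster were chosen after their values were seen. RefSeq tables on GRCh38 were not used, since coordinates were not converted.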

Additional observations from a re-analysis of the deposited data

How the results depend on the processing

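No paired analysis was possible because each condition had 1 library, and no library could be left out. A limit of 5 gave 26 members, with a median width of 4977 bp, 96.2% overlapped, 89.5% of their length covered and 23.1% with a neighbour within 100 kb. A limit of 3.5 gave 1460 members, with values of 1992.5 bp, 62.7% and 48.5%, and the excess in covered length over lower arm peaks went from 73.6 to 38.1 percentage points. Control peaks of at least 1 kb had a median width of 6017 bp, and 95.9% were overlapped. With siORCA peaks of −log10 q at least 2, 71.5% of members were overlapped and 79.3% of the length covered. With siORCA folds of at least 4, these were 49.3% and 68.4%, with an excess of 66.9 points. Overlap over 50% of the width gave 69.7%. Distances of 10 kb and 1 Mb gave 23.5% and 57.9% with a neighbour. Without the chromosome 8 cluster, 74.2% of the length was covered (excess 62.8 points), and without the 5 clusters with most members 70.9% (59.6 points), with 18.9% having a neighbour; both settings were chosen after seeing the data. The other 26 values stayed within an interval set around the main value, or for the number of members within a factor of 1.5. For covered length this interval treated the share of bases as a share of the 221 members. The excess was given an interval of the same width. For these 2 results it is a yardstick and does not measure an error. The cause was not tested for the values that moved more. In each setting that gave both shares, members were covered over a larger share of their length than lower arm peaks. The unknown depths limit what an absent siORCA peak shows.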

Other observations

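Seen from the siORCA list, the members gathered many of its highest folds on the arms. Of the 25 arm siORCA peaks with a fold of at least 8, 18 (72%) overlapped a member and 24 (96%) overlapped some control peak. Over all 37697 arm siORCA peaks these shares were 0.907% and 56.2%. Of these 18, 11 lay in 4 of the clusters of 3 or more members, 7 of them in the chromosome 6 cluster, and 7 lay elsewhere. Of the 47 with a fold of 6 to under 8, 18 overlapped a member, 15 of them outside such clusters. From 5 to under 6, 16 of 161 did (9.94%), and from 4 to under 5, 44 of 1891 did (2.33%). Below a fold of 8, overlap with any control peak did not follow this order: 56.5% of arm siORCA peaks with a fold under 4 overlapped a control peak, 50.9% of those from 4 to 5, 55.3% from 5 to 6, and 57.4% from 6 to 8. The median width of all arm siORCA peaks was 154 bp from 4 to 5, 143 bp from 5 to 6 and 5452 bp at 8 and above. These classes were chosen after seeing the data.

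The highest siORCA fold on the arms, 24.5, did not fall on a member. It overlapped a control peak with a fold between 3.9 and 4, just under the limit.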
